A study of Mus musculus domesticus with 6 samples.

Results

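The RNA sensing and interferon response genes are 35 mouse genes, chosen by symbol: 11 sensors of foreign or double-stranded nucleic acid with their adaptors, 6 signalling kinases and transcription factors, 2 interferon receptor subunits and 16 interferon-stimulated genes. Each matched 1 of the 55359 entries of the deposited tables by Ensembl identifier; Sting1 appears in the reference under its older symbol Tmem173. They were measured by total RNA sequencing in BFU-E, the earliest progenitors committed to the red cell lineage, sorted from fetal liver at E14.5 as GFP+ Lin- Kit+ cells with low CD24 and CD71. The 3 libraries of the control group came from Exosc3 fl/fl Cre- embryos and the 3 of the targeted group from Exosc3 fl/fl Cre+ embryos, which carry Vav1-Cre, active in blood cells. Both groups carry the floxed alleles, so the presence of Cre and the recombination of Exosc3 cannot be told apart. By the design text, each of 3 litters gave 2 of the 6 samples.

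The RNA exosome, of which Exosc3 encodes a subunit, trims and degrades RNA in the nucleus and cytoplasm, and a loss of RNA decay is one way in which a cell's own transcripts can form double strands. Such RNA is detected by RIG-I and MDA5, which signal through MAVS to the kinase TBK1 and the factors IRF3 and IRF7. Interferon is then made and secreted, its receptor activates STAT2 and IRF9, and these help switch on interferon-stimulated genes. The comparison of the groups therefore asks whether this programme differed between Cre+ and Cre- progenitors.

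The libraries held from 89629949 to 124931215 expected counts. Levels are given as CPM, in which all libraries are scaled to the same size, or, between genes, as the deposited TPM, which divides by transcript length. A count of 0 allows up to 3 reads, which is 0.0242 to 0.0339 CPM in these libraries and covers counting error of reads only. Genes with reads in 1 library alone had a median of 108 reads there, so values near 1 CPM may rest on very few captured molecules. Exosc3 was at 51.9, 44.3 and 48.0 CPM in the Cre- libraries and at 26.8, 22.1 and 30.2 CPM in the Cre+ libraries, with no overlap (log2 fold change -0.87 ± 0.22 SE, edgeR adjusted p = 0.259). Reads from exons that Cre does not remove still count toward Exosc3, and adjusted p-values of the alternatives ran from 0.00296 to 0.582. All 13 early erythroid markers were read in at least 1 library, and their sum was 1858 to 2128 CPM in Cre- and 2109 to 2570 CPM in Cre+ libraries. Car2, a carbonic anhydrase, was called higher (2.13-fold, edgeR adjusted p = 0.00787), Zfpm1 was higher without overlap, and Kit was lower without overlap (375 to 426 against 334 to 355 CPM). Of 13 macrophage markers, 8 had 0 reads in all 6 libraries, Adgre1, C1qa and C1qc among them. Others had reads: Csf1r was at 15.8 to 31.5 CPM in Cre- and 0 to 2.95 CPM in Cre+ libraries.

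Most members that start and relay the response were expressed in these progenitors, and most of the 16 interferon-stimulated members were low or absent in both groups. Reads were present in all 6 libraries for 8 of 11 sensors and adaptors, 5 of 6 kinases and factors, and both receptor subunits, but for 3 of 16 interferon-stimulated genes (Ifit2, Oas1a and Bst2). Zbp1, Tlr3, Isg15, Ifit3 and Ifi27l2a had 0 reads in every library. By mean TPM over the 6 libraries the highest members were Tbk1 (125.3), Ifnar2 (42.9), Eif2ak2 (39.5), Adar (31.0), Irf3 (27.3), Sting1 (23.3) and Bst2 (22.4). The median over the 13117 genes tested was 13.4 TPM, and 9 members lay above it.

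Of the 35 members, 25 had enough counts to be tested and 10 did not. Among the 25, edgeR called 0 at an adjusted p under 0.05, against 0.122% of all genes tested, and limma-voom also called 0. DESeq2 called 3, Oasl2 as higher and Sting1 and Irf9 as lower in Cre+ libraries, where it called 4.42% of all genes. The same 3 had an unadjusted p under 0.05 by edgeR, which is 12% of the 25 against 8.23% of all genes (4.05% higher and 4.19% lower). The groups did not overlap in CPM for 6 of the 25, 1 higher and 5 lower, or 24% against 15.2% of all genes (7.53% higher and 7.66% lower). The 1 higher in each of these counts is Oasl2. It had enough counts to be tested only through its Cre+ libraries, so its place there is not support for a difference. The median log2 fold change of the 25 was -0.11, that of all genes was -0.01, and 11 of the 25 were above 0.

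**Figure D1:**
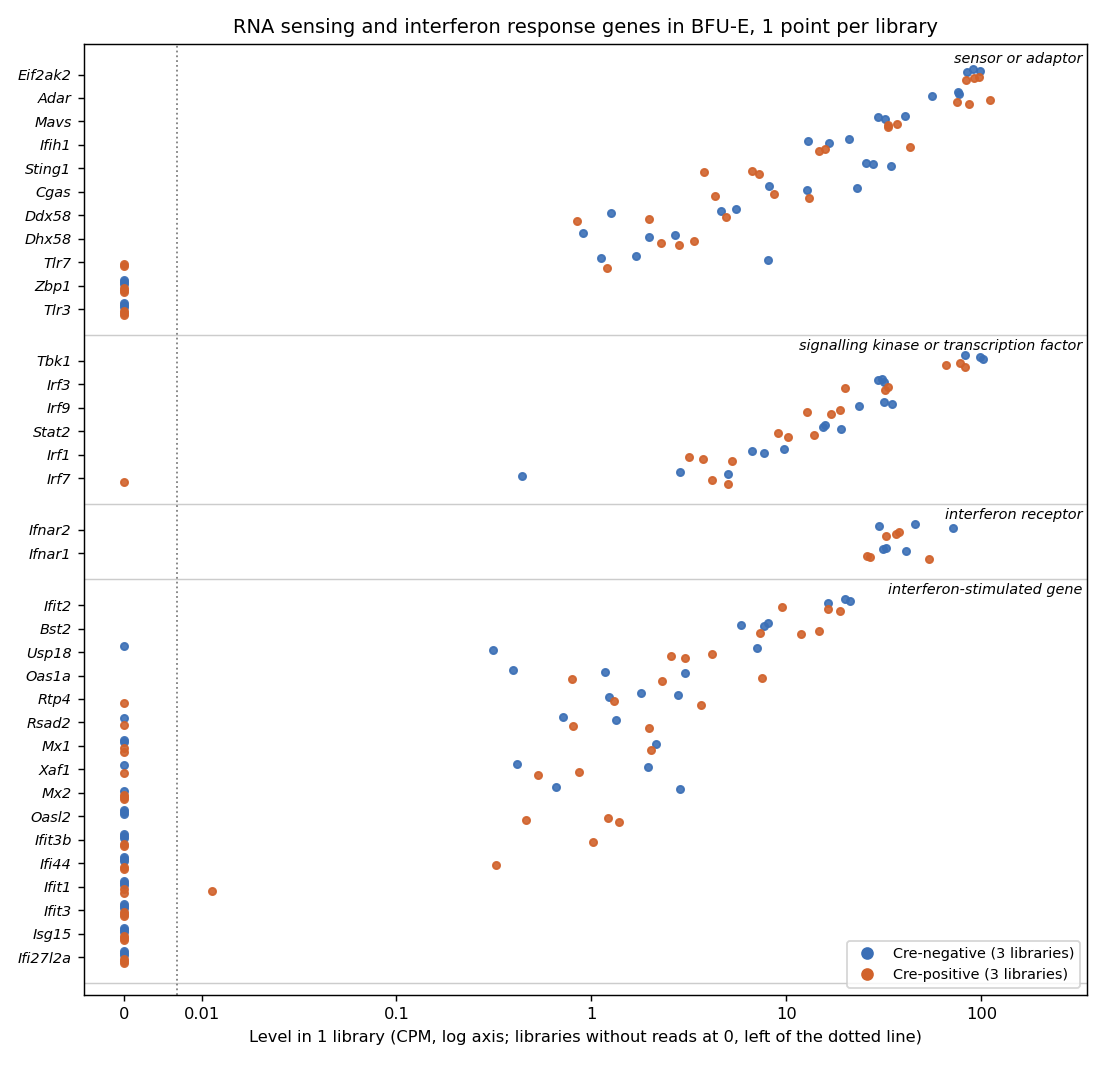
Level of each of the 35 members in each library (CPM, log axis), grouped by role, with libraries without reads at 0. Sensors, kinases and receptors reach up to about 100 CPM in both groups, Sting1 separates the groups, and 5 members are at 0 in all 6 libraries.

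Sting1 (ENSMUSG00000024349.11), the adaptor on the endoplasmic reticulum that relays the DNA sensor cGAS to TBK1, had the smallest p of all members. It was at 25.7, 27.9 and 34.6 CPM in Cre- replicates 1, 2 and 3, and at 6.63, 3.797 and 7.26 CPM in Cre+ replicates 1, 2 and 3. Every Cre+ library lay below every Cre- library. The mean was 29.4 ± 4.64 CPM against 5.89 ± 1.84 CPM (SD, n = 3 each), so that Cre+ libraries held 20.1% of the Cre- level. The log2 fold change was -2.32 ± 0.37 SE, with a 95% interval of -3.15 to -1.48, and stayed between -2.49 and -2.08 when each library was left out. The adjusted p was 0.0647 (edgeR), over the threshold, and the alternatives gave 1.11e-08 (DESeq2) to 0.862. Sting1 was called where edgeR was limited to genes averaging 1000 counts or more (1.01% of all genes called), where no filter was used (0.23%) and where the replicate number was a block (0.427%). In a bulk sample, fewer cells that express a gene and less of its RNA per cell cannot be told apart.

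The reads of Sting1 were also assigned to shorter transcripts in Cre+ libraries. RSEM's effective length, the length of the gene's transcripts weighted by how its reads were assigned, was 1005, 1139 and 1139 bases in Cre- replicates 1, 2 and 3. It was 463, 692 and 303 bases in Cre+ replicates 1, 2 and 3, again without overlap. Such a separation in length was seen for 9.62% of all genes tested (6.46% shorter in Cre+), and among the members for Dhx58, Irf3 and Oasl2 too, which were longer in Cre+ libraries (Oasl2 has no reads behind its Cre- lengths). Per length, Sting1 was at 28.6, 27.3 and 35.3 TPM in Cre- and 15.6, 6.10 and 26.7 TPM in Cre+ replicates, so Cre+ replicate 3 came within 1 TPM of the lowest control. With effective length as an offset, the log2 fold change was -0.88 (edgeR adjusted p = 0.862, with 0.0457% of all genes called). The size of the Sting1 difference therefore differs between reads and reads per length, while its direction does not.

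**Figure D2:**
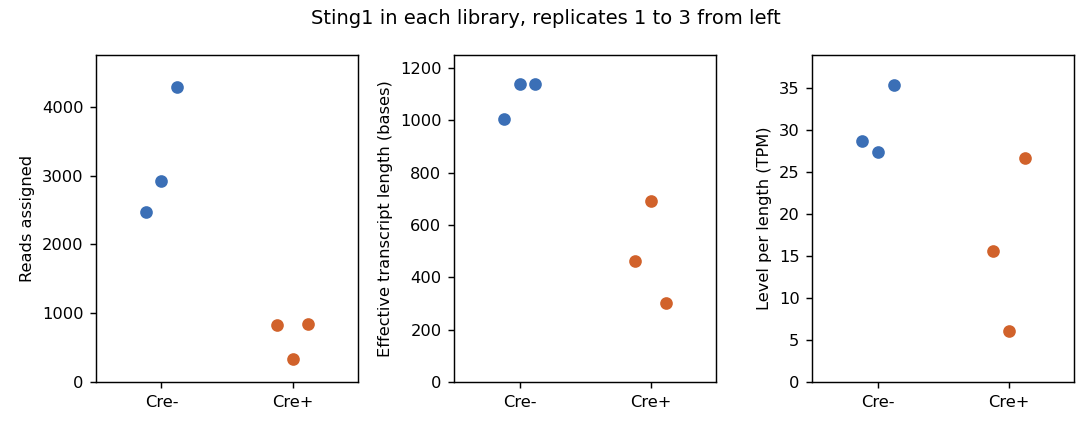
Reads assigned to Sting1, its effective transcript length in bases and its level in TPM, 1 point per library. The Cre+ libraries are lower in all 3, by much in reads and length and by little in TPM for replicate 3 (26.7 against 27.3 TPM in the lowest Cre- library).

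Markers of other blood cells were lower in Cre+ libraries beside Sting1. The summed level of 13 macrophage markers was 16.7 to 37.6 CPM in Cre- and 0.468 to 4.64 CPM in Cre+ libraries, and 8 of the 13 had 0 reads in every library. Most of the Cre- sum came from Csf1r. In Cre+ replicates 1, 2 and 3 Csf1r was at 2.59, 2.95 and 0 CPM and Cd68 at 2.045, 0 and 0.468 CPM. Cd68 was at 0, 0 and 3.73 CPM in the Cre- replicates and overlapped between the groups. The 12 neutrophil and monocyte markers summed to 553 to 1441 CPM and 229 to 503 CPM, mostly Mpo, with 5 of the 12 (S100a8 and S100a9 among them) at 0. The 11 lymphoid markers summed to 39.0 to 132 CPM and 1.59 to 9.34 CPM, with Cd3e, Dntt and Ncr1 at 0. The 9 markers of plasmacytoid dendritic cells, a cell type known for high interferon output, summed to 80.0 to 173 CPM and 54.8 to 67.6 CPM, with Klk1, Ly6d and Spib at 0. Tcf4 was the largest part, at 46.5 to 76.6 CPM in Cre- and 43.0 to 51.7 CPM in Cre+ libraries, with overlap. Irf8 and Runx2 made up most of the rest and were lower without overlap, and Siglech was at most 4.06 CPM. Markers of megakaryocytes (41.6 to 78.2 and 50.3 to 90.6 CPM), mast cells (at most 9.46 CPM) and hepatocytes (at most 1.08 CPM) overlapped between the groups. The 8 endothelial and stromal markers summed to 19.1 to 35.8 CPM in Cre- and 5.68 to 22.4 CPM in Cre+ libraries, mostly Pecam1, with overlap. Of these, Kdr was lower without overlap, Cdh5 overlapped, and 4 of the 8 were at 0. The part of such cells, or of progenitors primed toward them, in the Sting1 values was not tested.

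Among the double-stranded RNA sensors and their adaptor, the 95% intervals of Eif2ak2, Adar and Mavs lay within 2-fold. Eif2ak2 encodes PKR, the kinase that halts translation when bound to double-stranded RNA, and was at 90.1, 98.8 and 84.9 CPM in Cre- and 97.4, 91.3 and 83.6 CPM in Cre+ replicates. The groups overlapped throughout, and the 95% interval of the log2 fold change was -0.31 to 0.30. Adar encodes the enzyme that edits adenosine in double-stranded RNA and so keeps MDA5 from binding the cell's own transcripts. It was at 75.8, 76.4 and 55.9 CPM in Cre- and 111.2, 74.9 and 86.3 CPM in Cre+ replicates, with Cre+ replicate 2 within the control range. Its log2 fold change was 0.39 ± 0.20 SE with an interval of -0.05 to 0.83 (edgeR adjusted p = 0.698). The adaptor Mavs, on mitochondria, ranged from 29.5 to 40.4 CPM in Cre- and 33.2 to 36.9 CPM in Cre+ libraries, with a log2 fold change of 0.02 and an interval of -0.49 to 0.53.

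The helicase sensors were lower in level and varied more. Ifih1, which encodes MDA5, the sensor of long double-stranded RNA, was at 20.9, 13.0 and 16.5 CPM in Cre- and 43.3, 15.7 and 14.7 CPM in Cre+ replicates. Cre+ replicate 1 alone lay above the controls: the log2 fold change of 0.55 ± 0.46 SE became -0.14 without that library. Its 95% interval with all 6 libraries was -0.47 to 1.57, which reaches beyond 2-fold. Ddx58, which encodes RIG-I, the sensor of RNA ends made by viruses, ranged from 1.26 to 5.54 CPM in Cre- and 0.841 to 4.89 CPM in Cre+ libraries. Dhx58, which encodes their relative LGP2, ranged from 0.904 to 2.69 CPM and from 2.28 to 3.34 CPM. For Ddx58 the 95% interval of the log2 fold change was -3.29 to 2.15 and for Dhx58 -2.29 to 3.49, so both intervals include several-fold differences in either direction. Dhx58 and its antisense gene Dhx58os share 2.9% of the 50-base stretches of Dhx58, and the strand setting of the counting is not given in the sources used here.

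Sensors of other nucleic acids were sparse apart from Cgas. Cgas makes the second messenger that activates STING and ranged from 8.14 to 22.98 CPM in Cre- and 4.31 to 13.1 CPM in Cre+ libraries, with overlap (log2 fold change -0.75, interval -2.01 to 0.51). Tlr7, the endosomal receptor of single-stranded RNA, had 163, 118 and 997 reads in the Cre- replicates and 0, 0 and 138 in the Cre+ replicates. Its log2 fold change of -3.18 had an interval of -8.67 to 2.32 and did not pass (edgeR adjusted p = 0.898). It was -1.82 without Cre- replicate 3, -11.60 without Cre+ replicate 3 and -6.50 by limma-voom. Tlr3, the endosomal receptor of double-stranded RNA, and Zbp1, which senses Z-form nucleic acid and triggers cell death, had 0 reads.

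**Figure D3:**
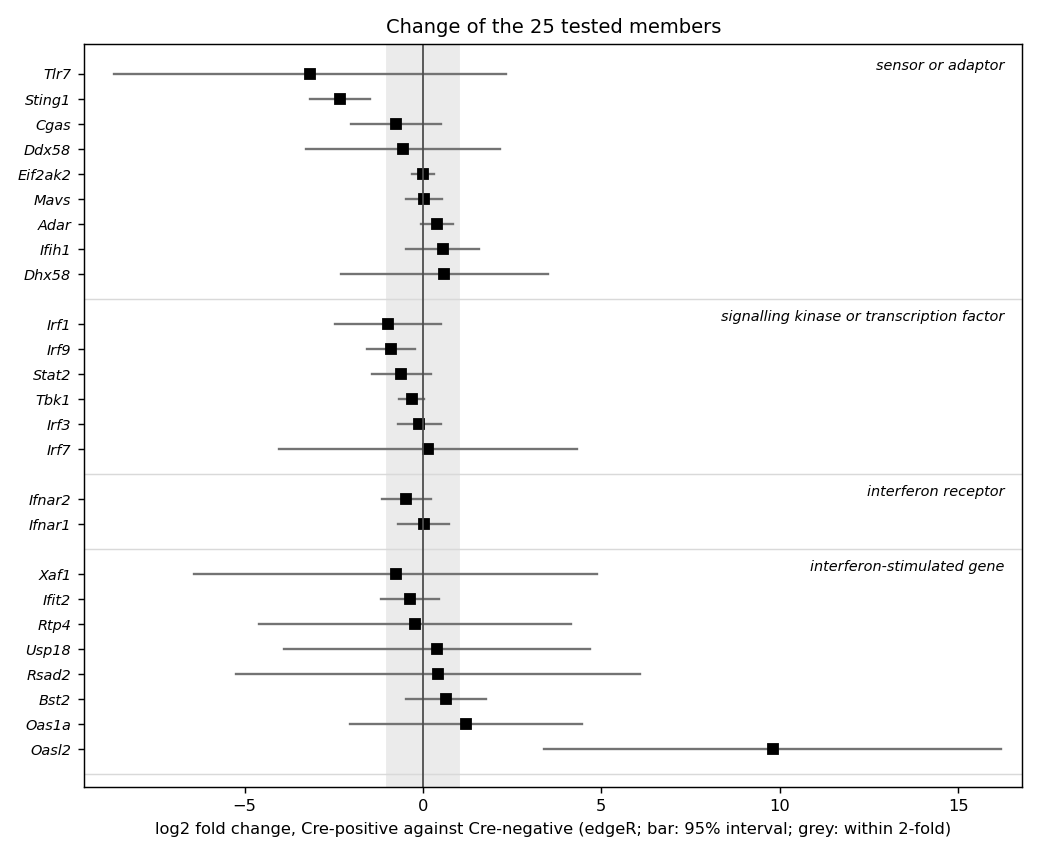
Log2 fold change of Cre+ against Cre- for the 25 tested members with its 95% interval, grouped by role. The intervals of Sting1, Irf9 and Oasl2 exclude 0 before adjustment, but Oasl2 could be tested only through its Cre+ libraries. The intervals of 6 members lie within the grey range of 2-fold (Eif2ak2, Mavs, Adar, Tbk1, Irf3 and Ifnar1).

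Among the factors that carry the signal, 4 of 6 had lower CPM in all Cre+ libraries than in any Cre- library, and 0 were called by edgeR (1 had an unadjusted p under 0.05, DESeq2 called 1 and limma-voom 0). Over all genes tested, 7.66% were separated in that direction. The summed level of the 6 was 173 to 190 CPM in Cre- and 116 to 152 CPM in Cre+ libraries, without overlap. The macrophage, neutrophil and lymphoid markers given beside Sting1 were lower in the same libraries, and their part was not tested. Irf9, the DNA-binding subunit of the complex formed after interferon binds its receptor, was at 31.7, 34.9 and 23.6 CPM in Cre- and 18.9, 12.7 and 17.01 CPM in Cre+ replicates. Cre+ libraries held 53.9% of the Cre- mean, with a log2 fold change of -0.89 ± 0.30 SE and an interval of -1.57 to -0.21. The adjusted p was 0.418 by edgeR and 0.0473 by DESeq2, and up to 0.790 in the other alternatives.

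Stat2, a partner of IRF9 in that complex, was at 15.8, 15.5 and 19.2 CPM in Cre- and 9.09, 13.8 and 10.2 CPM in Cre+ replicates. The gap between the groups was small beside the spread within them, and the log2 fold change was -0.61 ± 0.37 SE (edgeR adjusted p = 0.814). Irf1, a factor induced early by interferons and cytokines, was at 9.76, 6.65 and 7.63 CPM in Cre- and 3.15, 3.72 and 5.27 CPM in Cre+ replicates. Its log2 fold change was -0.99 ± 0.66 SE (edgeR adjusted p = 0.849), and in TPM the groups of Irf1 and of Stat2 overlapped.

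Tbk1, the kinase that phosphorylates IRF3 and IRF7, was at 82.5, 98.2 and 101.7 CPM in Cre- and 78.1, 65.9 and 82.4 CPM in Cre+ replicates. The highest Cre+ library thus lay just under the lowest control, and the log2 fold change was -0.32 ± 0.15 SE with an interval of -0.67 to 0.03 (edgeR adjusted p = 0.670). In TPM the groups of Tbk1 overlapped, so of the 4 factors only Irf9 was separated on both scales. The effective length of Tbk1 was 654 to 958 bases. Irf3, the factor that TBK1 activates, was at 30.8, 29.4 and 31.5 CPM in Cre- and 33.3, 20.0 and 32.0 CPM in Cre+ replicates, with Cre+ replicate 2 the one low library. The interval of its log2 fold change was -0.71 to 0.50. Irf7, which amplifies the response and is itself induced by interferon, had 275, 525 and 55 reads in Cre- and 513, 0 and 578 reads in Cre+ replicates, with no common shift (log2 fold change 0.14 ± 1.86 SE).

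**Figure D4:**
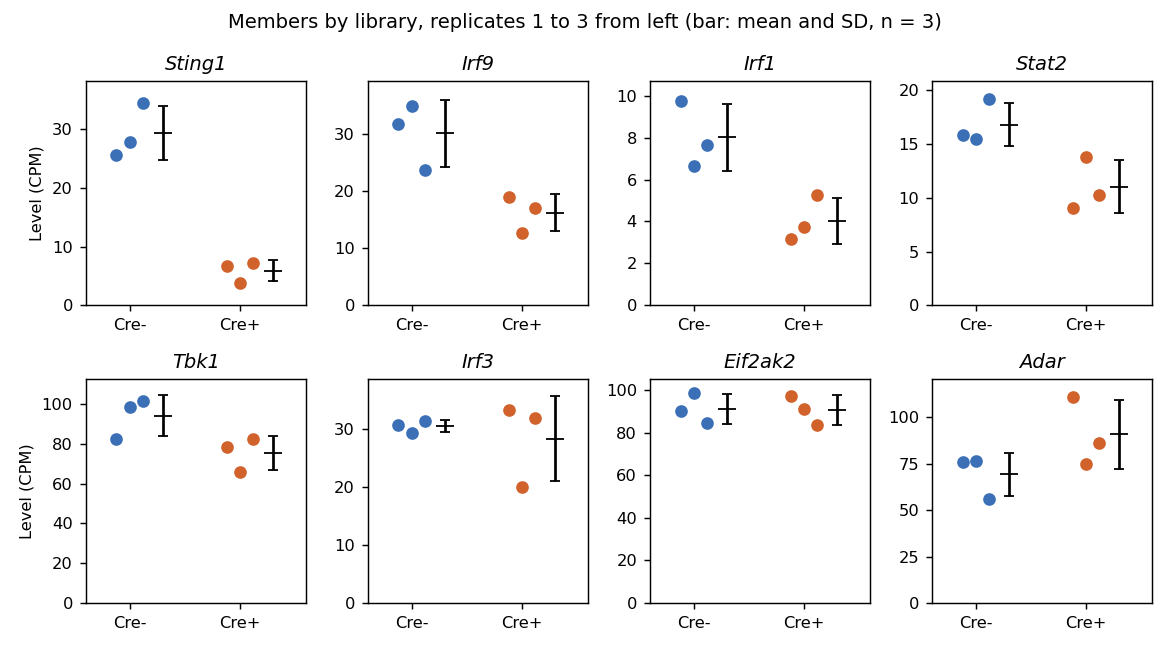
CPM of 8 members in each library, with the mean and SD of each group (n = 3). Sting1, Irf9, Irf1, Stat2 and Tbk1 are lower in each Cre+ library than in any Cre- library, and Irf3, Eif2ak2 and Adar overlap.

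Both subunits of the type I interferon receptor were expressed, and neither passed. Ifnar1 was at 32.3, 31.5 and 40.8 CPM in Cre- and 25.8, 26.8 and 53.9 CPM in Cre+ replicates, where 2 libraries lay below and 1 above all controls. Its log2 fold change was 0.03 with an interval of -0.69 to 0.74. Per length, Ifnar1 was at 10.5, 10.5 and 18.3 TPM in Cre- and 8.71, 40.7 and 26.8 TPM in Cre+ replicates, and with effective length offsets the log2 fold change was 0.99 (edgeR adjusted p = 0.804). Ifnar2 was at 45.6, 29.8 and 71.5 CPM in Cre- and 37.6, 36.5 and 32.5 CPM in Cre+ replicates. The Cre+ libraries of Ifnar2 lay within the wide control range (log2 fold change -0.46, interval -1.14 to 0.21).

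Most of the 16 interferon-stimulated members stayed low in both groups. The summed level over all 16 genes was 32.1 to 40.9 CPM in Cre- and 30.4 to 43.7 CPM in Cre+ libraries, so the groups overlapped. Of the 16, 8 could be tested and 0 were called by edgeR (1 had an unadjusted p under 0.05, DESeq2 called 1 and limma-voom 0). The median log2 fold change of these 8 was 0.41, and 5 of the 8, Oasl2 among them, were above 0. They passed the filter on low counts, Oasl2 only through its Cre+ libraries, and do not stand for all 16.

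Bst2 encodes tetherin, which holds budding virus at the cell surface, and was the highest of the 16 per length. It was at 8.05, 5.88 and 7.72 CPM in Cre- and 14.7, 7.30 and 11.9 CPM in Cre+ replicates. Cre+ replicates 1 and 3 lay above the controls and replicate 2 within them (log2 fold change 0.65 ± 0.50 SE, edgeR adjusted p = 0.899). Ifit2, which binds foreign RNA and limits its translation, ranged from 16.32 to 21.2 CPM in Cre- and 9.49 to 18.9 CPM in Cre+ libraries, with a log2 fold change of -0.36 and an interval of -1.18 to 0.46.

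Oasl2 (ENSMUSG00000029561.18), of the oligoadenylate synthetase family that responds to double-stranded RNA, was the one member with reads in each Cre+ library and none in the controls. It had 0 reads in all 3 Cre- libraries and 151, 41 and 159 reads in Cre+ replicates 1, 2 and 3. Against a floor of 3 reads per library the ratio is 36.4, which is not a lower bound on the difference in RNA. That floor is below the 108 reads typical of a gene seen in a single library, and the Cre+ level was 1.02 ± 0.488 CPM (SD, n = 3). The adjusted p was 0.322 by edgeR and 0.0389 by DESeq2, and up to 0.625 in the other alternatives. Oasl2 passed the filter on low counts only through its Cre+ libraries, so these p-values are not support for a difference.

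The other effectors had scattered reads. Oas1a, which makes the messenger that activates RNase L, had 38, 123 and 375 reads in Cre- and 927, 70 and 264 in Cre+ replicates, and 57.6% of its 50-base stretches also occur in Oas1g, so its reads are uncertain. Usp18, which removes ISG15 from proteins and damps receptor signalling, had 0, 742 and 39 reads in Cre- and 514, 227 and 350 in Cre+ replicates, so Cre- replicate 2 was the highest of all 6. Rtp4, which limits flavivirus growth, ranged from 152 to 292 reads in Cre- and 0 to 422 reads in Cre+ libraries. Rsad2, the antiviral enzyme viperin, had at most 167 and 228 reads, and Xaf1, which promotes cell death, at most 241 and 107.

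Several members used elsewhere as readouts of interferon were at or near 0. Mx2, an antiviral GTPase, had 63, 297 and 0 reads in Cre- and 0 in each Cre+ library. Its relative Mx1 had reads in 1 library of each group, 265 in Cre- replicate 3 and 179 in Cre+ replicate 2. Ifit1, which binds RNA with an unmodified cap, had 1 read in Cre+ replicate 2 and none elsewhere, and Ifi44 had 40 reads in Cre+ replicate 1 and none elsewhere. Isg15, the ubiquitin-like protein joined to others during the response, and Ifi27l2a, a small interferon-induced gene, had 0 reads in all 6 libraries. The effective length listed for Isg15 is 372 to 377 bases, and Bst2, at 457 to 463 bases, was read in every library.

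Ifit3 and Ifit3b are near copies, and reads from one can be assigned to the other. Ifit3 had 0 reads in every library and Ifit3b had 126 reads in Cre+ replicate 1 and 0 in the other 5. In GENCODE vM21 transcripts (build GRCm38) their longest open reading frames are each 1212 bases long and differ at 11 positions, an identity of 99.1%. The first 90 coding bases of each are shown because they carry 1 of these differences, in capitals, and are otherwise the same letters.
Ifit3: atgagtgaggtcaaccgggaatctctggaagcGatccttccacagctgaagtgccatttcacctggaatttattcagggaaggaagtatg
Ifit3b: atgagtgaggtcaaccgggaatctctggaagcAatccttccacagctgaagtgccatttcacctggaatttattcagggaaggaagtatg
Over all transcript sequence, 51.2% of the 50-base stretches of Ifit3 occur in Ifit3b. The 126 reads are thus given for the pair, and the 0 reads in the other 5 libraries hold for both genes.

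Outside the members, no interferon gene was read. All 20 interferon genes listed, Ifnb1, Ifng and 13 numbered Ifna genes among them, had 0 reads in all 6 libraries. Of 13 other receptor and JAK-STAT genes, 10 were tested and 0 called by edgeR (0 with an unadjusted p under 0.05, 0 by DESeq2 or limma-voom), with a median log2 fold change of -0.11. Ifngr1, a subunit of the interferon gamma receptor, had the smallest p there, at 199, 225 and 194 CPM in Cre- and 187, 178 and 154 CPM in Cre+ replicates (log2 fold change -0.25, edgeR adjusted p = 0.629). Ptpn6, the phosphatase SHP-1, followed with -0.32 (edgeR adjusted p = 0.826).

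Of 30 other genes of sensor signalling, 29 were tested, 0 were called by edgeR and 9 had a log2 fold change above 0, with a median of -0.09. Their summed level was 1240 to 1263 CPM in Cre- and 1095 to 1191 CPM in Cre+ libraries, and 6 of the 29 were lower and 0 higher without overlap. Irf8, among these 6, is also in the list of plasmacytoid dendritic markers given above. Over all genes tested, 7.66% were lower and 7.53% higher without overlap. The 2 with an unadjusted p under 0.05 were both lower, where 4.19% of all genes were lower at that p. Irf5, a factor of interferon and cytokine genes in myeloid cells, was at 7.87, 13.2 and 25.8 CPM in Cre- and 1.84, 0 and 0.546 CPM in Cre+ replicates. The groups were far apart, but its adjusted p was 0.389 (edgeR), and the myeloid markers given above were lower in the same libraries; their part was not tested. Myd88, the adaptor of Toll-like receptors, was at 27.3, 43.4 and 31.8 CPM in Cre- and 17.3, 11.7 and 22.8 CPM in Cre+ replicates (log2 fold change -0.99, adjusted p = 0.408 by edgeR and 0.0391 by DESeq2). DESeq2 also called Nlrc5, an activator of MHC class I genes, as lower (log2 fold change -9.47, adjusted p = 0.0406), a gene named after its values were seen. Nlrc5 was the 1 gene of the 30 that did not pass the filter on low counts, so this p-value is not support for a difference. Over all genes, DESeq2 called 4.42%.

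Of 57 further interferon-stimulated genes, 49 were tested and 0 called by edgeR or limma-voom, and an unadjusted p under 0.05 was reached by 3 with higher and 4 with lower levels, where 4.05% and 4.19% of all genes reached it. Of all genes, 4.42% were called by DESeq2, which called 4 of this list. The median log2 fold change of the 49 was 0.07. Of the 57, 36 had reads in all 6 libraries and 5 had 0 reads in each. The summed level of this list was 1222 to 1452 CPM in Cre- and 1417 to 1533 CPM in Cre+ libraries, with overlap, so it was far from absent. Ube2l6, the enzyme that conjugates ISG15, had 215, 182 and 67 reads in Cre- and 1294, 1570 and 1115 reads in Cre+ replicates. Its means were 1.503 and 12.6 CPM, an 8.39-fold difference with every Cre+ library above every control (log2 fold change 3.07 ± 0.75 SE, edgeR adjusted p = 0.245, DESeq2 adjusted p = 0.000141). Slfn2, a Schlafen gene needed for quiescence of T cells and monocytes, had 206, 709 and 164 reads in Cre- and 0 in each Cre+ library (edgeR adjusted p = 0.236, DESeq2 adjusted p = 4.25e-06). Slfn2 passed the filter on low counts only through its Cre- libraries, so these p-values are not support for a difference. DESeq2 also called Tap1 as higher (1.49 on the log2 scale) and Gbp3 as lower (-1.94), both named after their values were seen. Cxcl10 and Ccl5, chemokine genes driven by IRF3 and interferon, had 0 reads in all 6 libraries.

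Among genes whose products keep endogenous double-stranded RNA or stray DNA in check, all 20 matched genes were tested and 0 were called by edgeR (1 had an unadjusted p under 0.05, 0 by DESeq2 or limma-voom), with a median log2 fold change of 0.07. Their summed level was 2869 to 2949 CPM in Cre- and 2982 to 3088 CPM in Cre+ libraries, without overlap but with a narrow gap. Of the 20, 2 were higher without overlap, near the 7.53% of all genes tested. Setdb1, the methyltransferase that silences endogenous retroviruses, was at 124, 120 and 128 CPM in Cre- and 156, 153 and 142 CPM in Cre+ replicates. All 3 Cre+ libraries were above the controls, by 0.28 ± 0.11 SE on the log2 scale (edgeR adjusted p = 0.511). Pnpt1, a mitochondrial RNA-degrading enzyme that is also in the list of further interferon-stimulated genes, followed with 0.27 (edgeR adjusted p = 0.817).

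**Figure D5:**
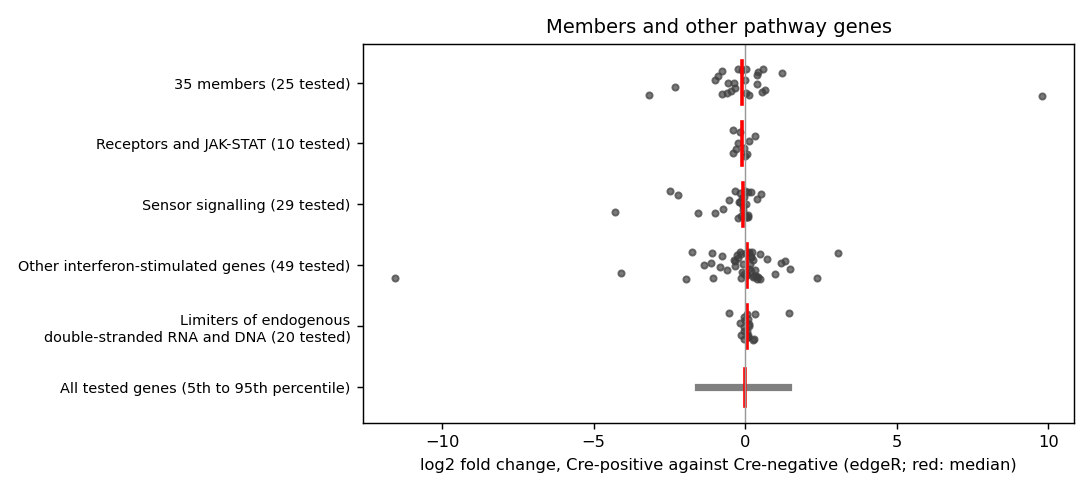
Log2 fold change of each tested gene among the members and 4 lists of other pathway genes, with the median in red. The medians lie between -0.11 and 0.07, next to -0.01 over all genes tested, whose 5th and 95th percentiles are -1.56 and 1.40.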

How the data were processed

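Total RNA of 6 sorted BFU-E samples was prepared with a stranded SMARTer Pico kit (Takara) for total RNA, per the labels. The authors used STAR 2.5.3a and RSEM 1.3.0 with build GRCm39, per the submitters' processing notes; the sources used here do not give the annotation or the strand option. Per the file headers, each deposited table holds expected counts, TPM, FPKM (not used) and transcript lengths per gene. Expected counts, of which 2.64% were not whole (tolerance 0.001), were rounded. Symbols came from a GRCm38 reference by identifier (52081 of 55359 matched), so no coordinates are given. The authors' deposited TPM entered no test.

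Genes kept by filterByExpr (13117) were tested with edgeR 4.0.16 in R 4.3.3 (TMM, glmQLFit, glmQLFTest). P-values were adjusted by Benjamini-Hochberg over these genes, with a threshold of 0.05. SE is the log2 fold change over the root of F, and 95% intervals use the t quantile. Alternatives used DESeq2 1.42.0, limma-voom 3.58.1, library totals, upper-quartile factors, no filter, a mean of 1000 counts, effective length offsets, the replicate block and leaving out each library. The common biological coefficient of variation was 85.4%. On simulated counts of the same 13117 genes, edgeR recovered 45% of 4-fold and 19% of 2-fold changes, and 7.2% of its calls were false.

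Values are given per library for the 8 members with the smallest p, the 6 highest in TPM, the leading 2 of each role, and untested members with reads in 2 libraries of a group; of each other list the leading 2 are named. Library values of further members were added after they were seen. Members and lists were chosen with earlier results of these data known. Nothing says that the samples of a group are separate animals, beyond the litters, so p-values measure the spread between these samples. Replicate numbers were not taken as litters, since the labels do not say so. Same-numbered libraries correlated at 0.026, 0.053 and 0.073 in their deviations from the group means, and differently numbered ones at -0.054 to -0.005. These values do not exclude a pairing by number. Sequences of promoters and proteins were not analysed here.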

Additional observations from a re-analysis of the deposited data

How the results depend on the processing

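The count of members called was 0 by edgeR, 0 with library totals, upper-quartile factors, limma-voom, effective length offsets and without each library, 1 (Sting1) with no filter, with a mean of at least 1000 counts or with the replicate block, and 3 by DESeq2. Over all genes the 16 calls became 616 by DESeq2, 84 with a mean of at least 1000 counts, 39 with no filter, 6 with effective length offsets and 7 to 16 when each library was left out. Replicate numbers are not known to pair the samples; with them as a block edgeR called 56 genes, Sting1 among them (adjusted p = 0.0476), and each library correlated best with the one of its own number. Sting1 passed with no filter (adjusted p = 0.0300) and with a mean of at least 1000 counts (0.0136). The member median ranged from -0.40 (without Cre+ replicate 3) to 0.02 (without Cre+ replicate 2).

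The following directions are not stable, and none of these members passed under any of the alternatives. With effective length offsets the log2 fold changes turned for Dhx58 (-0.75), Eif2ak2 (0.21), Irf7 (-0.43) and Mavs (-0.31). With limma-voom they turned for Ifnar1 (-0.053), Irf7 (-1.35) and Rsad2 (-0.10), with the replicate block for Ifnar1 (-0.052), and with library totals for Mavs (-0.001). Leaving out each library gave -0.062 to 0.050 for Eif2ak2, -0.14 to 0.81 for Ifih1, -0.41 to 0.21 for Ifnar1, -0.23 to 0.10 for Irf3, -0.42 to 0.88 for Irf7, -0.076 to 0.16 for Mavs, -0.78 to 1.37 for Rsad2, -1.56 to 0.36 for Rtp4, -0.19 to 4.36 for Usp18 and -1.56 to 1.15 for Xaf1. The cause was not tested. The log2 fold change of Tlr7 was -7.46 with the replicate block, and that of Ifnar1 was 0.99 with effective length offsets.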
